A study of Mus musculus with 8 samples.

Results

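The nuclear transfer RNAs (tRNAs) that carry lysine, arginine, glutamate and glutamine were examined in small RNA libraries of mouse skin fibroblasts. Members were all entries of the genomic tRNA class whose name, after the hyphen, begins with Lys, Arg, Glu or Gln, which gave 91 of the 423 genomic tRNA features and of the 2403 small RNA features in the table. They comprised 30 features for Lys, 24 for Arg, 21 for Glu and 16 for Gln, and fell into 11 anticodons. The libraries came from immortalized C57BL/6 fibroblasts. The KO groups were derived from mir210lox/lox mice and the WT groups from wild-type mice, and each was kept for 24 h in hypoxia (1% oxygen) or normoxia (21% oxygen). Each of the 4 groups (KO hypoxia, KO normoxia, WT hypoxia, WT normoxia) had 2 libraries, numbered 1 and 2. The genotype label names the floxed allele and does not itself state how or when it was deleted, and separate cultures are not stated for the paired libraries of a group, so a p-value here reflects only library-to-library spread, which may be technical. The targeted microRNA was in keeping with the titles: miR-210-3p held 10 and 32 in KO hypoxia and 23 and 14 in KO normoxia, against 36738 and 39011 in WT hypoxia and 4786 and 8676 in WT normoxia.

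A tRNA brings its amino acid to the ribosome and reads a codon through the 3 bases of its anticodon. Lys and Arg are the basic amino acids of histone tails and ribosomal proteins, while Glu is acidic and Gln is its amide. In the Lys, Glu and Gln tRNAs whose anticodon begins with U, that wobble base is modified by the Elongator pathway, and stress can cleave tRNAs in the anticodon loop, through ribonucleases such as angiogenin, into shorter tRNA-derived fragments. A small RNA library reads such pieces as well as degraded tRNA. The deposited table gives 1 value per feature and does not say which part of the tRNA the reads cover, and in bulk RNA fewer cells and less RNA per cell cannot be told apart.

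Many copies of these genes are identical in sequence. Without the flanking base that the deposited sequences carry at each end, the 91 features held 54 distinct sequences, of which 15 occurred in several copies (52 features) and 39 occurred once. The sequences on which the comparisons below turn are given 5′ to 3′ in DNA letters as deposited, with the anticodon in capitals (bases 34 to 36). Some form near-identical pairs whose members differed between groups to different degrees, and others are less alike. GluTTC has 3 sequence types, called types 1, 2 and 3 here. Types 1 and 3 come first, followed by 2 of the 12 LysCTT sequences (those with 2 and 7 copies), the main LysTTT sequence, and 4 Arg members described below.
chr9.tRNA961-GluTTC (type 1, 4 copies): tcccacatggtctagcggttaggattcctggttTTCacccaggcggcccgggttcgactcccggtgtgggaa
chr14.tRNA359-GluTTC (type 3, 2 copies): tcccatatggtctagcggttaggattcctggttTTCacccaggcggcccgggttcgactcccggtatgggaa
chr12.tRNA790-LysCTT (2 copies): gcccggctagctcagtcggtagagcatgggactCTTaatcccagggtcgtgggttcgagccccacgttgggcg
chr11.tRNA2023-LysCTT (7 copies): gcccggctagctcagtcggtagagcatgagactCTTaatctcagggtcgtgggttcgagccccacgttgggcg
chr13.tRNA1000-LysTTT (6 copies): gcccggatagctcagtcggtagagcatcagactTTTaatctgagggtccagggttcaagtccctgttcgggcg
chr11.tRNA945-ArgCCG (1 copy): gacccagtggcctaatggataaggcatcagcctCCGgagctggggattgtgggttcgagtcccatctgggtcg
chr17.tRNA994-ArgCCG (1 copy): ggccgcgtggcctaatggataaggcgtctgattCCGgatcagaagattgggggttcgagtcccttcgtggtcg
chr11.tRNA1022-ArgCCT (1 copy): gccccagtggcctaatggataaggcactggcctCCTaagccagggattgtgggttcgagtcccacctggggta
chr14.tRNA209-ArgACG (3 copies): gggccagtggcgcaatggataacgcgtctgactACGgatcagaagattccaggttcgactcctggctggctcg

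Positions are counted from 1 at the 5′ end. GluTTC types 1 and 3 differ at 2 of 72 bases, C6T and G66A, which face each other in the acceptor stem. The 2-copy and the 7-copy LysCTT sequence differ by G29A and C41T, a pair of facing bases in the anticodon stem (97.3% identity). The main LysTTT sequence differs from the 7-copy LysCTT sequence at 12 of 73 bases, 2 of them before the anticodon, and the ArgCCG members printed above differ at 15 of 73. In the coordinates of the deposited table, chr9.tRNA961-GluTTC lies at chr9:104310997-104311068, chr12.tRNA790-LysCTT at chr12:72070107-72070179, chr11.tRNA945-ArgCCG at chr11:106874180-106874252 and chr11.tRNA1022-ArgCCT at chr11:115274295-115274367. The build was not given in the sources used here. The highest tRNA end on chromosome 7 in the table, 151195231, lies past the last annotated GRCm38 gene end there (145324086), so no GRCm38 annotation was laid over these positions and their gene context was not analysed.

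Library totals ran from 8618630 to 12167438 normalized read counts. The low values in 7 libraries fell on multiples of a step between 0.826 and 1.138. The members took 3.484% and 2.587% of the library in KO hypoxia and 3.057% and 3.301% in KO normoxia, against 2.115% and 1.905% in WT hypoxia and 1.91% and 1.829% in WT normoxia. All 4 KO libraries stood above all 4 WT libraries. The widest exact (Clopper-Pearson) 95% interval of these shares spanned 0.02315 percentage points, which covers counting error at most. It treats each unit of the normalized count as an independent read, so reads counted in several copies would make it too narrow. The remaining genomic tRNAs took 6.524%, 5.013%, 6.53% and 7.664% of the KO libraries and 5.378%, 4.585%, 5.226% and 5.909% of the WT libraries, which overlap. Ribosomal RNA took 5.763% of KO hypoxia number 1 and 1.689% to 2.882% of the other libraries, and the part of this in the results was not tested. The 7 microRNAs fixed as fibroblast markers were all present and summed to 38.01% to 47.19% of each library. The lists for epithelial, haematopoietic, endothelial, muscle and neural cells each summed to at most 0.007739%, with 6 of 6, 4 of 5, 2 of 2, 2 of 4 and 2 of 3 microRNAs in the table, none of them at 0 in all libraries.

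Of the 91 members, 89 reached 10 or more in 2 or more of the 8 libraries and were tested. The 2 that did not were chr3.tRNA622-GluCTC, with 3 to 9 per library, and chr8.tRNA317-LysTTT, with 0 to 3 per library. The value of 0, in KO normoxia number 1, allows up to 3.481e-05% of that library. Mean values over the 8 libraries ran from 1.75 to 21848.5; 48 members averaged over 1000 and 11 under 100. Differences are log2 differences of value + 1 with the standard error from limma, fitted to the 1540 features tested, and p-values are adjusted by Benjamini-Hochberg over all of them, with 0.05 as the threshold. Anticodon sums were fitted in a table of 1178 rows in which the copies of each anticodon were added. A read that matches several copies may be counted in each, so levels are not compared between anticodons.

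Among the members, the clearest difference lay between genotypes, in the Glu tRNAs. In the plot of sums by anticodon, GluTTC stood at 92389 and 92684 in KO hypoxia and 45815 and 94460 in KO normoxia, against 33250 and 60545 in WT hypoxia and 33890 and 41167 in WT normoxia. KO normoxia number 1 was the low library among the KO samples and WT hypoxia number 2 the high one among the WT samples, and these overlapped. GluCTC stood at 58891 and 56242 in KO hypoxia and 53027 and 66751 in KO normoxia, against 37931 and 39559 in WT hypoxia and 37167 and 43986 in WT normoxia, with every KO library above every WT library. Such a difference was not particular to Glu. The Asp tRNAs, which are not members, summed to 110467 and 105849 in KO hypoxia and 63478 and 108308 in KO normoxia. In WT they summed to 54238 and 77083 in hypoxia and 46964 and 49892 in normoxia. Others, such as Val, had lower group means in KO, at 157666 (hypoxia) and 198390 (normoxia) against 169904 and 216948 in WT. In hypoxia Val summed to 163767 and 151566 in KO against 172849 and 166958 in WT, without overlap. In normoxia it summed to 149911 and 246868 in KO against 177193 and 256704 in WT, which overlap. Averaged over both oxygen levels, KO minus WT was 0.93 for the GluTTC sum (SE 0.28, limma adjusted p = 0.156) and 0.56 for the GluCTC sum (SE 0.17, adjusted p = 0.163). None of the 11 sums passed the threshold in any contrast, against 0.17% of the joined rows in that comparison and in KO against WT within hypoxia, 0.0849% in KO against WT within normoxia and 0% in the hypoxia comparisons and the interaction.

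**Figure D1:**
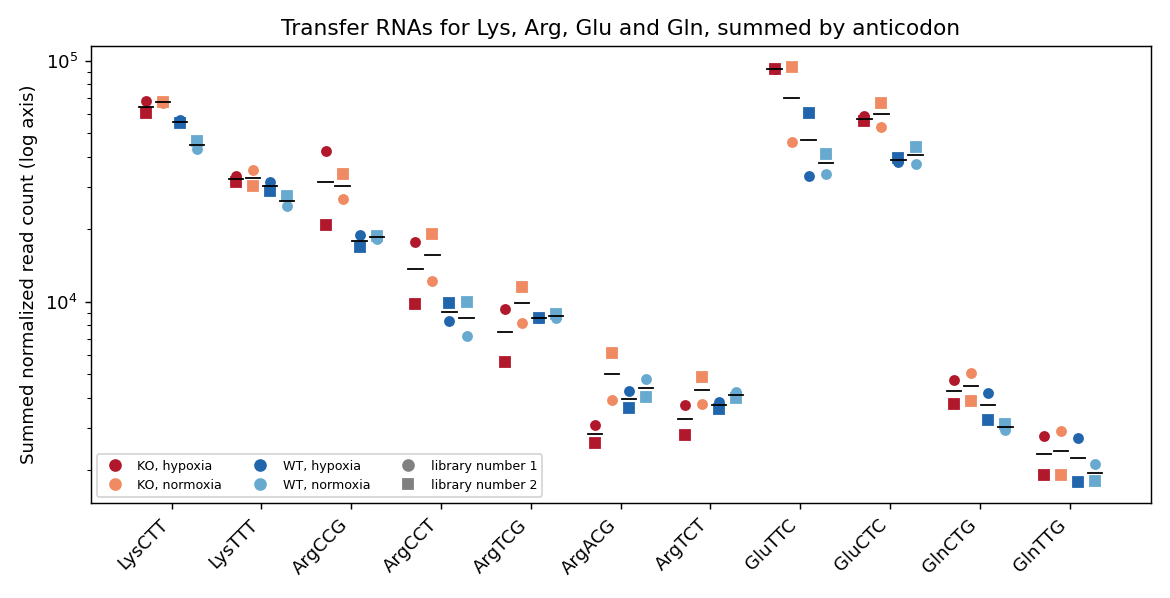
Summed normalized read count of each of the 11 anticodons (log axis) in every library, with KO hypoxia, KO normoxia, WT hypoxia and WT normoxia from left to right, circles for number 1, squares for number 2 and a bar at the group mean. GluCTC separates all KO from all WT libraries, whereas for GluTTC the low KO normoxia library (45815) lies below the high WT hypoxia library (60545).

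Among the other anticodons, LysCTT held 67987 and 60555 in KO hypoxia and 66682 and 67760 in KO normoxia, against 56582 and 55120 in WT hypoxia and 43172 and 46297 in WT normoxia. All KO sums were higher than all WT sums (0.39, SE 0.16, adjusted p = 0.286), and with libraries scaled to their genomic tRNA total the difference was 0.13. ArgCCG, 1 of 5 anticodons that read Arg codons here, held 42345 and 20756 in KO hypoxia and 26707 and 34033 in KO normoxia, against 18957 and 16818 in WT hypoxia and 18314 and 18729 in WT normoxia. The groups did not overlap, and the KO hypoxia libraries stood apart from each other (0.72, SE 0.24, adjusted p = 0.189; 0.46 without KO hypoxia number 1, adjusted p = 0.452). ArgCCT held 17669 and 9798 in KO hypoxia and 12188 and 19161 in KO normoxia, against 8314 and 9912 in WT hypoxia and 7200 and 10028 in WT normoxia. Here KO hypoxia number 2 fell among the WT libraries (0.69, SE 0.26, adjusted p = 0.227).

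The remaining sums differed less between genotypes. LysTTT gave 0.21 (SE 0.17, adjusted p = 0.699), with 30296 to 35168 in KO and 24973 to 31272 in WT libraries. GlnCTG gave 0.37 (SE 0.20, adjusted p = 0.452), with 3781 to 5065 in KO and 2944 to 4209 in WT libraries. GlnTTG gave 0.17 (SE 0.24, adjusted p = 0.824), with 1920 to 2905 in KO and 1783 to 2738 in WT libraries. These 3 ranges overlap. The GlnTTG difference ran from 0.015 without WT hypoxia number 2 to 0.32 without WT hypoxia number 1. Scaled to the genomic tRNA total, LysTTT and GlnTTG turned to −0.057 and −0.098 and GlnCTG gave 0.11, while GluTTC, GluCTC, ArgCCG and ArgCCT gave 0.66, 0.30, 0.45 and 0.42. That total includes the members themselves, so it is not a scale independent of them. The Arg anticodons ArgTCG (−0.05, SE 0.22), ArgTCT (−0.07, SE 0.19) and ArgACG (−0.16, SE 0.21) lay near 0 on the deposited scale, with limma adjusted p of 0.959, 0.925 and 0.819. Their sign turned positive when libraries were scaled to their microRNA total. Scaled to the genomic tRNA total, they moved further below 0, to −0.31, −0.34 and −0.42. On the deposited scale the 5 Arg anticodons thus lay on both sides of 0.

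Feature by feature, 0 of 89 members passed the threshold in the mean genotype comparison (limma; 0.13% of all 1540 features did, both arms of miR-210). A fit blocked on replicate number called 8 of 89 members, all higher in KO (5.91% of all features were called in that fit), and 2 of the 11 sums, GluTTC and GluCTC (6.28% of the joined rows). Scaled to the microRNA total, 5 members and the GluTTC sum were called, all higher in KO (5.52% of all features and 5.35% of the joined rows). An unadjusted p under 0.05 was found for 25 members, all higher in KO (12.3% of all features were higher at that level and 5.45% lower). They were 18 of 20 Glu, 4 of 24 Arg, 2 of 29 Lys and 1 of 16 Gln features. The 4 KO libraries lay above the 4 WT libraries for 22 of 89 members and below them for 0, where 8.38% of all features lay above and 3.51% below; of the 324 other genomic tRNA features tested, 44 lay above and 1 below. The 22 included 12 of 12 GluCTC, 2 of 8 GluTTC, 3 Arg, 4 Lys and 1 Gln features. Since 9 of the 12 GluCTC features have the same sequence, they are not separate measurements. The others, chr17.tRNA720-GluCTC, chr12.tRNA886-GluCTC and chr7.tRNA967-GluCTC, had values close to theirs. They held 4766, 4626 and 4589 in KO hypoxia number 1, against 4786 for chr1.tRNA1002-GluCTC of the 9. In WT hypoxia number 1 they held 3152, 3027 and 2965 against 3095. These too may not be separate measurements, and reads shared with the 9 were not tested. In all, 77 of 89 members were higher in KO (43.2% of all features), with a median of 0.28 against −0.06 over all features and 0.12 over the other tRNAs. Scaling each library to its genomic tRNA total brought the members' median to 0.0091 and the median of all features to −0.32. The members themselves made up 23.63% to 34.81% of that total, and more of it in every KO library than in any WT library. This scaling thus removes part of their own difference. On that scale 47 of 89 members were higher.

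Members whose anticodon begins with T, the wobble base that is U in the tRNA, had a median of 0.19 (27 of 34 higher in KO), and those with another base there 0.36 (50 of 55 higher). The gap between them was not tested, and the second set holds all 12 GluCTC features. By amino acid the medians were 0.57 for Glu (20 of 20 higher), 0.33 for Gln (16 of 16), 0.25 for Lys (26 of 29) and 0.03 for Arg (15 of 24). In these and all other counts of members, copies with the same sequence are counted singly, although they are not separate measurements. Before the filter, the 21 Glu features held 8 distinct sequences, the 16 Gln features 10, the 30 Lys features 17 and the 24 Arg features 19. The mitochondrial tRNAs for the same amino acids, which the mitochondrial genome encodes and which serve its own ribosomes, had a median of 0.00076 (2 of 4 higher).

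**Figure D2:**
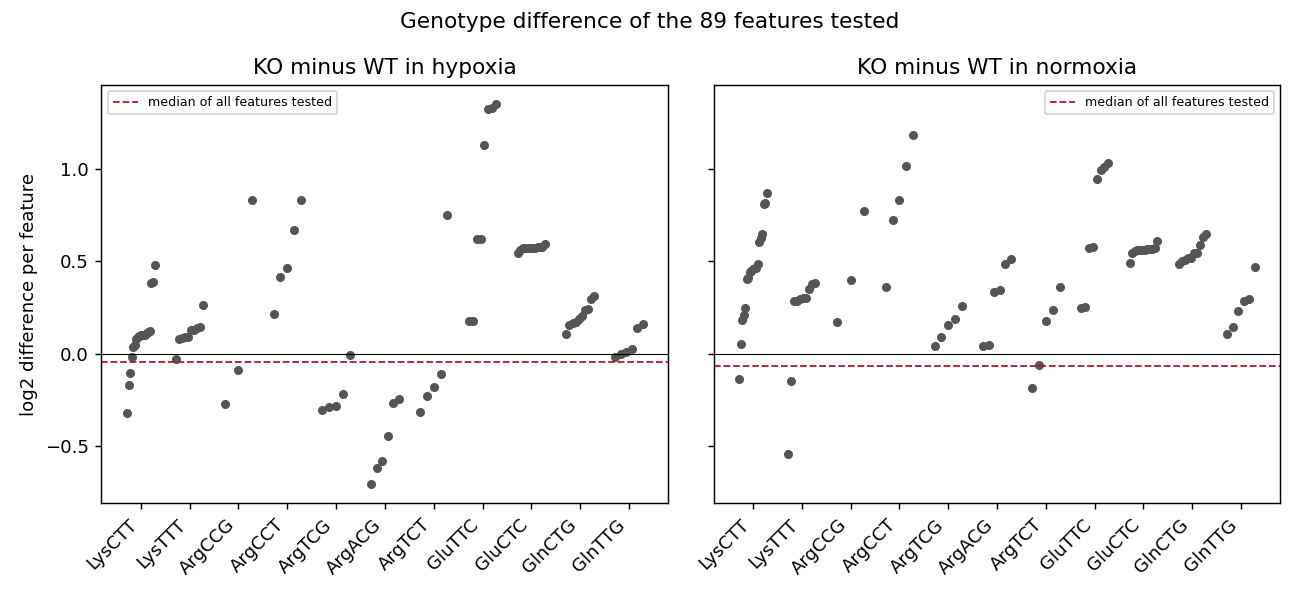
Log2 difference of KO minus WT for each of the 89 features tested, by anticodon, in hypoxia (left) and in normoxia (right), with the median of all 1540 features as a dashed line. In hypoxia the 4 GluTTC type 1 copies lie highest and the ArgACG features reach lowest (−0.71), while in normoxia 84 of 89 points lie above 0.

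The GluTTC difference came unevenly from its sequence types. The type 1 copy chr9.tRNA961-GluTTC held 21400 and 21108 in KO hypoxia and 7849 and 21466 in KO normoxia, against 6177 and 15305 in WT hypoxia and 5884 and 7745 in WT normoxia. Its values fell into a high and a low set, with 3 KO libraries between 21108 and 21466, KO normoxia number 1 beside the WT libraries, and WT hypoxia number 2 in between (mean genotype difference 1.04, SE 0.36, adjusted p = 0.179; 0.67 without KO normoxia number 2, adjusted p = 0.445). The type 2 copy chr3.tRNA754-GluTTC, present in 2 copies, held 5530 and 5179 in KO hypoxia and 5011 and 6387 in KO normoxia, against 3447 and 3506 in WT hypoxia and 3560 and 4048 in WT normoxia. The KO libraries all lay above the WT libraries (0.60, SE 0.18, adjusted p = 0.144). The type 3 copy chr14.tRNA359-GluTTC held 3777 and 3495 in KO hypoxia and 2954 and 5085 in KO normoxia, against 2930 and 3518 in WT hypoxia and 2962 and 3590 in WT normoxia, which overlap (0.21, SE 0.22, adjusted p = 0.713).

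Ratios between sequence types within a library do not depend on how libraries are scaled. Type 1 over type 3, taken from the copies above, was 5.666 and 6.039 in KO hypoxia and 2.657 and 4.221 in KO normoxia, against 2.108 and 4.35 in WT hypoxia and 1.986 and 2.157 in WT normoxia. With chr13.tRNA105-GluTTC, an identical type 1 copy, the ratio was smaller. It was then 4.533 and 5.087 in KO hypoxia and 2.453 and 3.207 in KO normoxia, against 1.583 and 2.869 in WT hypoxia and 1.635 and 1.632 in WT normoxia. With either copy, both KO hypoxia libraries thus lay above every other library in the balance of tRNAs that differ only by C6T and G66A. The KO normoxia and WT hypoxia pairs were each spread more widely than the other pairs. The part of reads shared between near-identical sequences in these ratios was not tested.

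**Figure D3:**
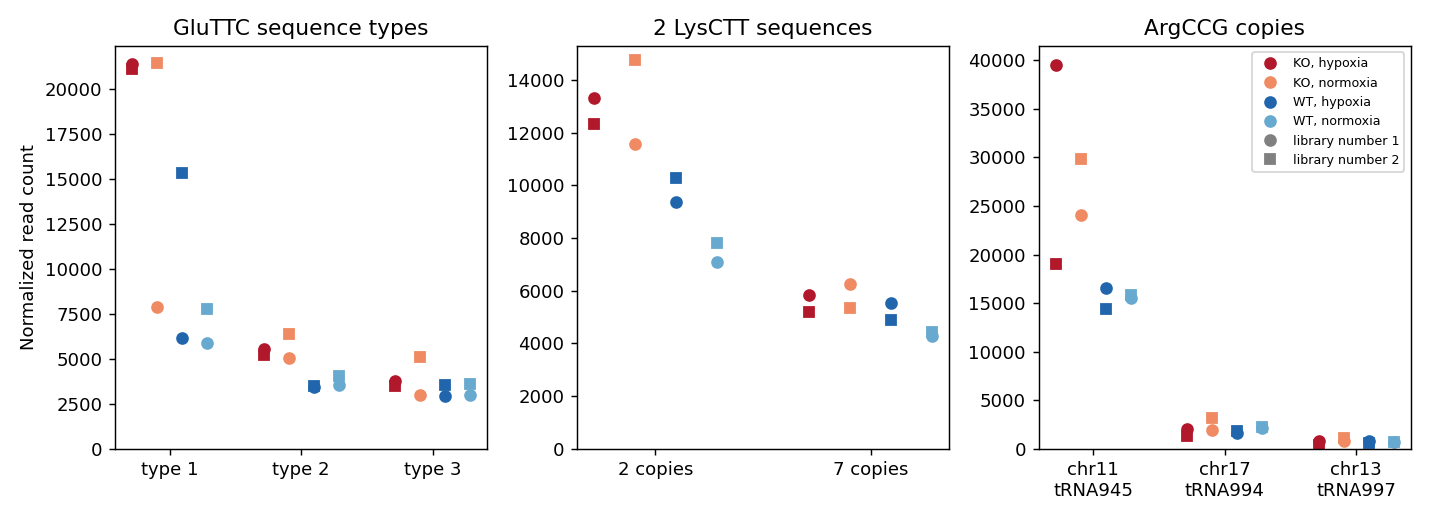
Normalized read count per library of the 3 GluTTC sequence types, 2 of the 12 LysCTT sequences and the 3 ArgCCG features, each with KO hypoxia, KO normoxia, WT hypoxia and WT normoxia from left to right, circles for number 1 and squares for number 2. The 2-copy LysCTT sequence separates KO (11569 to 14778), WT hypoxia (9370 and 10300) and WT normoxia (7089 and 7829), and chr11.tRNA945-ArgCCG carries most of the ArgCCG values.

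Copies with the same sequence did not always have the same value. The 4 type 1 copies of GluTTC ran from 17120 to 21400 in KO hypoxia number 1, and chr9.tRNA961-GluTTC exceeded chr13.tRNA105-GluTTC by 4280 and 3330 in KO hypoxia and 603 and 5156 in KO normoxia, against 1539 and 5212 in WT hypoxia and 1042 and 1887 in WT normoxia. For ArgACG the excess was larger in proportion: chr14.tRNA209-ArgACG held 1441 and 1318 in KO hypoxia and 1783 and 3302 in KO normoxia, against 1820 and 1935 in WT hypoxia and 2565 and 2158 in WT normoxia, while its copy chr13.tRNA951-ArgACG held 212, 150, 317 and 366 in the same order in KO and 392, 191, 271 and 210 in WT. Such gaps arise among features that are alike over the whole tRNA and were not traced to reads here. With the flanking bases kept, the 6 ArgACG features held 5 distinct sequences rather than 3. The 8 GluTTC features likewise held 6 rather than 3. The part of the flanking bases in these gaps was not tested. By contrast, the 2 copies of type 2 differed by at most 19 (4992 and 5011 in KO normoxia number 1).

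In Lys, the 2-copy LysCTT sequence had the larger genotype difference of the pair of LysCTT sequences printed above. chr12.tRNA790-LysCTT held 13321 and 12329 in KO hypoxia and 11569 and 14778 in KO normoxia, against 9370 and 10300 in WT hypoxia and 7089 and 7829 in WT normoxia. KO libraries were highest, WT hypoxia came next and WT normoxia was lowest, with no overlap (mean genotype difference 0.60, SE 0.18, adjusted p = 0.144). The 7-copy type chr11.tRNA2023-LysCTT held 5826 and 5209 in KO hypoxia and 6255 and 5353 in KO normoxia, against 5548 and 4893 in WT hypoxia and 4292 and 4420 in WT normoxia. There the KO and WT hypoxia libraries overlapped (0.25, SE 0.18, adjusted p = 0.595). The ratio of the 2-copy to the 7-copy type was 2.286 and 2.367 in KO hypoxia and 1.85 and 2.761 in KO normoxia, against 1.689 and 2.105 in WT hypoxia and 1.652 and 1.771 in WT normoxia. KO normoxia number 1 lay within the WT range in this ratio. The main LysTTT sequence over the 7-copy LysCTT type stayed between 0.9174 and 1.028 in the 8 libraries. These tRNAs differ at 12 bases, 2 of them before the anticodon. The ratio is given for its steadiness across libraries and not as a comparison of levels. The part of reads shared between these sequences was not tested.

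**Figure D4:**
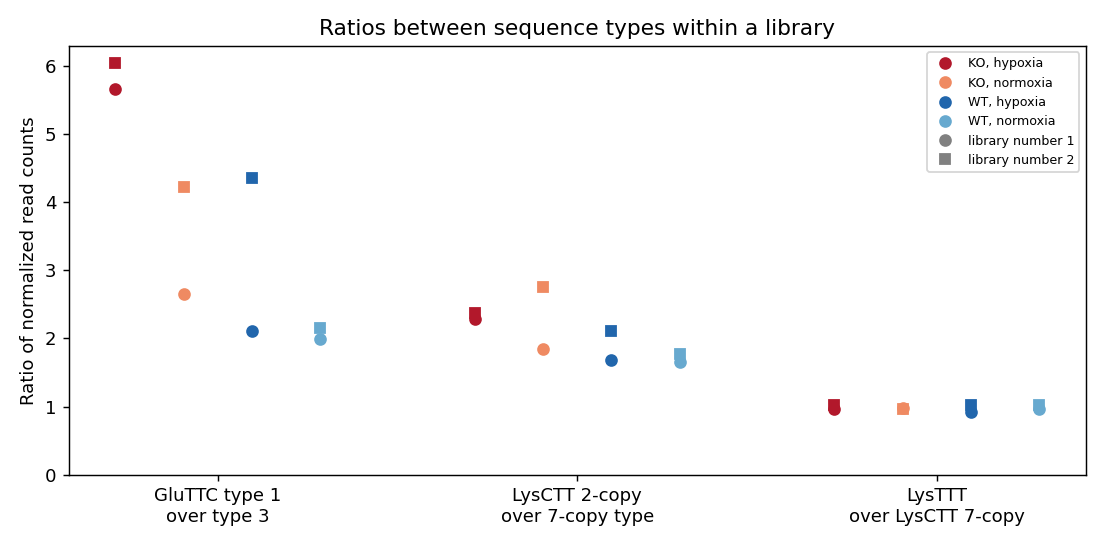
Ratio of normalized read counts within each library (no unit) for 3 pairs of sequence types, with KO hypoxia, KO normoxia, WT hypoxia and WT normoxia from left to right. GluTTC type 1 (chr9.tRNA961-GluTTC) over type 3 (chr14.tRNA359-GluTTC) runs from 1.986 to 6.039, whereas LysTTT over the 7-copy LysCTT type stays between 0.9174 and 1.028.

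In ArgCCG, a single feature held most of the value. chr11.tRNA945-ArgCCG made up 88.88% of its anticodon and held 39537 and 19033 in KO hypoxia and 24105 and 29801 in KO normoxia, against 16582 and 14347 in WT hypoxia and 15554 and 15829 in WT normoxia. Every KO library exceeded every WT library, and KO hypoxia number 1, the library with the most ribosomal RNA, was the highest (0.80, SE 0.25, adjusted p = 0.146; 0.54 without that library, adjusted p = 0.361). chr17.tRNA994-ArgCCG, with the same anticodon, held 2026 and 1324 in KO hypoxia and 1868 and 3160 in KO normoxia, against 1637 and 1853 in WT hypoxia and 2086 and 2230 in WT normoxia, so that KO libraries were both the lowest and the highest (0.04, SE 0.23, adjusted p = 0.955). The ratio of the first to the second was 19.51 and 14.38 in KO hypoxia and 12.9 and 9.431 in KO normoxia, against 10.13 and 7.743 in WT hypoxia and 7.456 and 7.098 in WT normoxia. In hypoxia both KO ratios exceeded both WT ratios, as they did in normoxia.

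chr11.tRNA1022-ArgCCT held 4478 and 2158 in KO hypoxia and 3263 and 4668 in KO normoxia, against 1734 and 1755 in WT hypoxia and 1559 and 1896 in WT normoxia. The WT libraries lay close together and below all KO libraries (1.01, SE 0.26, adjusted p = 0.135). The most abundant ArgCCT feature, chr6.tRNA107-ArgCCT, held 8185 and 4915 in KO hypoxia and 5220 and 9172 in KO normoxia, against 3792 and 5566 in WT hypoxia and 3293 and 5319 in WT normoxia, which overlap (0.60, SE 0.28, adjusted p = 0.328). Of the other features with the highest mean in their anticodon, chr13.tRNA74-ArgTCG (−0.10, SE 0.22) and chr19.tRNA637-ArgTCT (−0.19, SE 0.19) had adjusted p of 0.883 and 0.713, and both turned positive when scaled to the microRNA total. For Gln, chr13.tRNA982-GlnCTG held 681 to 735 in KO and 446 to 644 in WT libraries without overlap (0.31, SE 0.18, limma adjusted p = 0.485), and chr11.tRNA1493-GlnTTG held 539 to 739 in KO and 465 to 672 in WT libraries (0.30, SE 0.21, adjusted p = 0.586). The identical copies of chr13.tRNA982-GlnCTG did overlap between genotypes, such as chr9.tRNA342-GlnCTG with 373 to 550 in KO and 320 to 462 in WT libraries.

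Taken within hypoxia, KO against WT, 0 of 89 members passed (limma; 0.13% of all features did) while 11 were higher and 1 lower at an unadjusted p under 0.05 (7.14% and 1.88% of all features). Of these, 9 were Glu features, all higher, and 3 were Arg features. Members did not overlap in 31 cases, 28 higher and 3 lower (19.2% and 16.6% of all features), and 65 of 89 were higher (45.5%), with a median of 0.13 against −0.04 over all features. Scaled to the genomic tRNA total, 31 of 89 were higher, with a median of −0.11 against −0.28 over all features. The smallest p belonged to type 1 copies of GluTTC. chr13.tRNA105-GluTTC held 17120 and 17778 in KO hypoxia, against 4638 and 10093 in WT hypoxia (1.35, SE 0.44, adjusted p = 0.493), and chr7.tRNA337-GluTTC and chr14.tRNA347-GluTTC, identical in sequence, gave 1.33 and 1.32. Without WT hypoxia number 1 these differences were 0.79, 0.77 and 0.76. Both KO libraries were above both WT libraries, and the WT libraries differed from each other more than the KO libraries did. The GluTTC sum gave 1.04 (SE 0.39, adjusted p = 0.497), which became 0.61 without WT hypoxia number 1 (adjusted p = 0.881). The GluCTC sum gave 0.57 (SE 0.25, adjusted p = 0.570).

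Within normoxia, KO against WT, 0 of 89 members passed (limma; 0.0649% of all features did) and 12 had an unadjusted p under 0.05, all higher (8.64% of all features were higher at that level and 4.81% lower). They were 5 Glu, 3 Arg, 3 Lys and 1 Gln features. Groups did not overlap for 62 members that were higher and 2 that were lower (21.9% and 20% of all features), and 84 of 89 were higher (45.6%), with a median of 0.46 against −0.06 over all features and 0.30 over the other tRNAs. Scaled to the genomic tRNA total, 61 of 89 were higher, with a median of 0.17 against −0.35 over all features. Here chr11.tRNA1022-ArgCCT had the smallest p (1.18, SE 0.36, adjusted p = 0.324), followed by the identical LysCTT copies chr9.tRNA1035-LysCTT (0.81, SE 0.25, adjusted p = 0.324) and chr12.tRNA790-LysCTT (0.81, SE 0.25, adjusted p = 0.324). The LysCTT sum gave 0.59 (SE 0.23, adjusted p = 0.398) and the ArgCCT sum 0.85 (SE 0.36, adjusted p = 0.441), the second becoming 0.52 without KO normoxia number 2 (adjusted p = 0.793). The KO normoxia libraries differed from each other more than those of any other group, with a median absolute log2 difference of 0.35 over the members against 0.16 to 0.21 in the other groups.

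Hypoxia was compared with normoxia in each genotype, and these contrasts use the same libraries as the genotype contrasts above. In KO cells 0 of 89 members passed (limma; 0% of all features did) and 6 had an unadjusted p under 0.05, all lower in hypoxia (2.47% of all features were higher at that level and 2.92% lower). All 6 were the ArgACG features, which read Arg codons beginning with CG. Groups did not overlap for 3 members higher and 11 lower (15.8% and 13.1% of all features), and 20 of 89 were higher (52.3%), with a median of −0.06 against 0.02 over all features and −0.25 over the other tRNAs. Scaled to the genomic tRNA total, 60 of 89 were higher (median 0.035, against 0.11 over all features), and scaled to the microRNA total 8 of 89 were (median −0.21, against −0.13). The ArgACG sum held 3075 and 2598 in KO hypoxia, against 3929 and 6160 in KO normoxia (−0.80, SE 0.30, adjusted p = 0.926), and both hypoxia libraries were below both normoxia libraries. The difference was −0.48 without KO normoxia number 2 (adjusted p = 0.993). Of its copies, chr14.tRNA209-ArgACG gave −0.82 (SE 0.32), chr9.tRNA783-ArgACG −0.75 (SE 0.30) and chr13.tRNA951-ArgACG −0.93 (SE 0.38), each with adjusted p = 0.804; chr14.tRNA209-ArgACG gave −0.37 without KO normoxia number 2. chr9.tRNA783-ArgACG, of another sequence, held 363 and 261 in KO hypoxia, against 436 and 613 in KO normoxia.

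In WT cells 0 of 89 members passed and 0 had an unadjusted p under 0.05 (limma; 0% and 1.3% of all features). Groups did not overlap for 28 members higher and 6 lower (14.4% and 11.4% of all features), among them 20 Lys features and 7 Gln features that were higher. Of the 324 other genomic tRNA features, 82 were higher and 47 lower without overlap. The 20 Lys features included every copy of the 7-copy and 2-copy LysCTT sequences and of the 6-copy LysTTT sequence, which are not separate measurements. In all, 58 of 89 were higher in hypoxia (52.1%), with a median of 0.17 against 0.02 over all features and 0.06 over the other tRNAs. The smallest p-values belonged to Lys features: chr9.tRNA1035-LysCTT held 9274 and 9946 in WT hypoxia, against 6920 and 7700 in WT normoxia (0.40, SE 0.25, adjusted p = 1), and its copy chr12.tRNA790-LysCTT also gave 0.40 (SE 0.25). chr16.tRNA267-LysCTT, a sequence with 1 copy, held 349 and 324 in WT hypoxia, against 252 and 260 in WT normoxia (0.39, SE 0.26, adjusted p = 1). For each of these both hypoxia libraries were above both normoxia libraries. The LysCTT sum gave 0.32 (SE 0.23) and the GluTTC sum 0.26 (SE 0.39), each with adjusted p = 1.

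**Figure D5:**
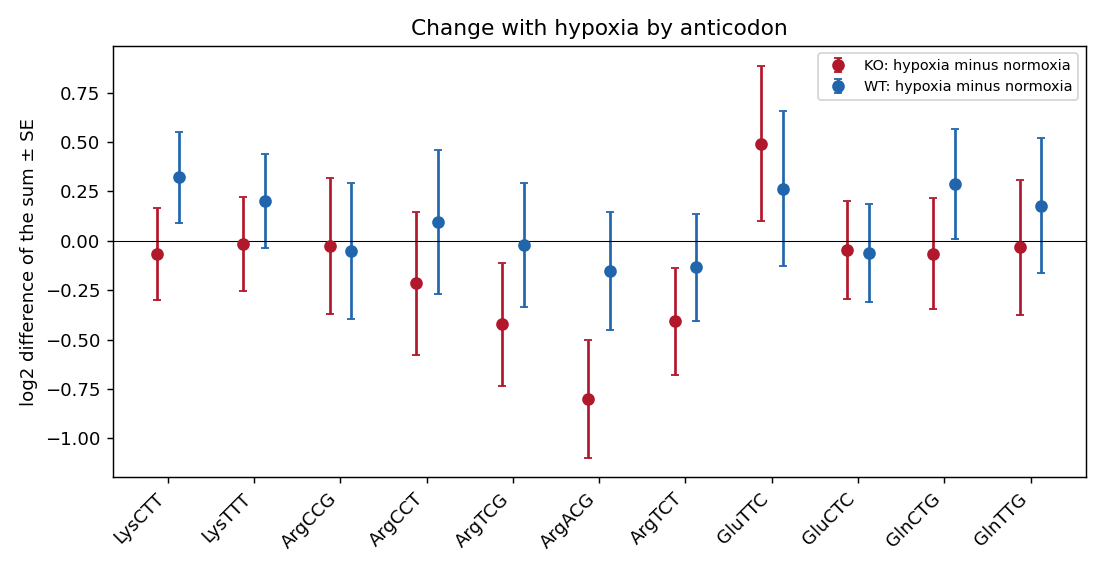
Log2 difference of hypoxia minus normoxia of each anticodon sum, with bars of 1 standard error from limma, in KO (left point of each pair) and in WT (right point). ArgACG in KO lies lowest at −0.80, and LysCTT stands at −0.07 in KO and 0.32 in WT.

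The difference between these changes, KO hypoxia effect minus WT hypoxia effect, was tested as an interaction. Of the 89 members 0 passed and 0 had an unadjusted p under 0.05 (limma; 0% and 2.4% of all features), and 21 were above 0 (52.2% of all features), with a median of −0.25 against 0.02 over all features and the same −0.25 over the other tRNAs. The smallest p belonged to identical ArgACG copies, chr13.tRNA951-ArgACG (−1.13, SE 0.54) and chr13.tRNA953-ArgACG (−1.07, SE 0.54), and to chr16.tRNA267-LysCTT (−0.73, SE 0.37), with adjusted p = 1 after rounding. Without WT hypoxia number 1, chr13.tRNA951-ArgACG gave −0.61 and chr13.tRNA953-ArgACG −0.56. chr16.tRNA267-LysCTT held 337 and 290 in KO hypoxia, against 371 and 421 in KO normoxia, the opposite order to that in WT cells. It and chr13.tRNA982-GlnCTG were the 2 members that were higher in hypoxia without overlap in WT and lower without overlap in KO (1.1% of all features), while chr14.tRNA209-ArgACG and chr19.tRNA637-ArgTCT were lower in hypoxia without overlap in both (1.82% of all features). For chr13.tRNA982-GlnCTG the change in KO was small (−0.06). Copies of the chr14.tRNA209-ArgACG sequence disagreed in WT. There chr14.tRNA209-ArgACG gave −0.33, while its identical copies chr13.tRNA951-ArgACG and chr13.tRNA953-ArgACG each gave 0.20. Averaged over genotypes, 0 of 89 members passed for hypoxia against normoxia (limma; 0% of all features) and 1 had an unadjusted p under 0.05, chr14.tRNA209-ArgACG, which was lower (−0.57, SE 0.23, adjusted p = 0.975; 2.34% of all features were higher at that level and 1.23% lower). In that comparison 49 of 89 members were higher (54.6% of all features), with a median of 0.02 against 0.03. Scaled to the genomic tRNA total 63 of 89 were higher (median 0.086), and scaled to the microRNA total 23 of 89 (median −0.085). Groups did not overlap for 0 members higher and 1 lower (0.519% and 0.714% of all features).

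All 4 mitochondrial tRNAs for these amino acids had negative log2 differences of hypoxia minus normoxia in both genotypes. mt-Te, for Glu, held 509 and 630 in KO hypoxia, against 1161 and 1795 in KO normoxia (−1.35, SE 0.30, limma adjusted p = 0.804), and 781 and 697 in WT hypoxia, against 1131 and 1006 in WT normoxia (−0.53, SE 0.30, adjusted p = 1). mt-Tq, for Gln, held 537 and 711 in KO hypoxia, against 1095 and 1200 in KO normoxia (−0.89, SE 0.33, adjusted p = 0.804). In both genes both KO hypoxia libraries were below both KO normoxia libraries. mt-Tr, for Arg, gave −0.67 (SE 0.29) in KO and −0.18 (SE 0.29) in WT, and mt-Tk, for Lys, gave −0.02 (SE 0.31) in KO and −0.41 (SE 0.31) in WT. Of the 4, 3 had an unadjusted p under 0.05 in KO, all lower in hypoxia (2.92% of all features were lower at that level and 2.47% higher). In WT 0 did (1.3% of all features), and none passed the threshold (0% of all features in either genotype).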

How the data were processed

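Small RNA was measured in 8 libraries of mouse fibroblasts (4 groups of 2). Per the labels' protocols, miRNeasy was used to extract total RNA, and the NEBNext small RNA chemistry for the SOLiD platform to build libraries. The authors' deposited values are a score: normalized read counts rounded to whole numbers, 1 per feature and library. How reads were trimmed, aligned, shared among matching features and normalized, and on which build, was not given in the sources used here. All value columns were mapped to libraries by title.

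Features with at least 10 in at least 2 libraries were tested on log2(value + 1) with limma 3.58.1 in R 4.3.3, with an intensity trend, 4 group means, 4 residual and 5.64 prior degrees of freedom, and Benjamini-Hochberg adjustment over all 1540 features. The same fit was made after adding the copies of each anticodon (1178 rows). The values are not raw counts, so no count test was used. The calculations were tested on simulated data. How often changes of the size seen here would be called is not given, so a member that did not pass is not shown to be unchanged.

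The members, gene lists and tests were chosen with earlier results of these data known. Named were the feature with the highest mean in each anticodon, every member past the threshold, the 3 members with the smallest p in each pairwise contrast and the interaction, all anticodon sums, the 4 mitochondrial tRNAs and miR-210. Other features (other members of a sequence pair or copies, and the untested ones) were named after their values were seen. Sequences were read from the table without 1 flanking base at each end, since the remaining length equals end minus start. Alternatives were other pseudocounts, filters, scalings, a fit with no trend, a replicate block, only the groups compared, other ways of joining copies and leaving out each library. Libraries sharing a number were not paired in the main analysis. A value of 0 was given the limit of 3 counts. Some sequences are not reported here.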

Additional observations from a re-analysis of the deposited data

How the results depend on the processing

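The counts of members and anticodons past the threshold were recomputed 295 times over the 7 contrasts, and 291 stayed at 0. All 4 changes were in the mean genotype comparison. Scaling to the microRNA total, which moved the median of all features to 0.14, called 5 members (the 4 GluTTC type 1 copies and chr11.tRNA1022-ArgCCT) and 1 anticodon (GluTTC, 1.13, adjusted p = 0.0201), and 85 of all 1540 features and 63 of all 1178 joined rows. With the replicate number as a block, 8 members and 2 anticodons were called, GluTTC (0.93, adjusted p = 0.0206) and GluCTC (0.56, adjusted p = 0.0459), all higher in KO, and 91 of all features and 74 of all joined rows. The members were those 5, chr12.tRNA790-LysCTT, chr9.tRNA1035-LysCTT and chr7.tRNA967-GluCTC. Deviations of same-numbered libraries correlated between groups with r from 0.15 to 0.55 over all features and from −0.19 to 0.71 over the members, and with only 2 numbers the labels do not say that a number marks a shared day or culture. Joining features by sequence without flanking bases, chosen after seeing the data, changed no count. Leaving out a library, where the lone library of the group is assumed to vary like the others, left every count of members and anticodons at 0 (0 to 0).

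Of 881 recomputed values of single features and sums, 855 kept their direction and side of the threshold, 6 passed it and 20 changed sign, all of these in the mean genotype comparison. Scaled to the microRNA total, chr13.tRNA74-ArgTCG became 0.098, chr19.tRNA637-ArgTCT 0.0082, and the sums of ArgACG 0.039, ArgTCG 0.15 and ArgTCT 0.13. Scaled to the genomic tRNA total, chr13.tRNA1000-LysTTT became −0.017 and the sums of LysTTT −0.057 and GlnTTG −0.098. TMM factors and quantile normalization gave 0.036 and 0.12 for ArgTCG and 0.012 and 0.025 for ArgTCT. Leaving out a library gave −0.32 to 0.0053 for the ArgACG sum, −0.23 to 0.14 for ArgTCG, −0.17 to 0.032 for ArgTCT, −0.42 to 0.022 for chr14.tRNA209-ArgACG and −0.27 to 0.078 for chr13.tRNA74-ArgTCG. The cause was not tested. Counting depth is lowest for the 11 members under a mean of 100.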
